A study of Mus musculus with 9 samples.

Results

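Transcription factors that hold mouse embryonic stem cells in the pluripotent state were followed across a knockdown of Apela, which encodes a small secreted hormone (ELABELA, or Toddler) acting on the apelin receptor. They were 10 of 19938 genes measured, chosen by name: Pou5f1, Sox2, Nanog, Klf2, Klf4, Klf5, Esrrb, Tfcp2l1, Zfp42 and Tbx3. Each had 1 probe set with a single gene symbol, so all 10 were read and no choice between probe sets arose. RNA came from bulk cultures of R1E, a mouse embryonic stem cell line, kept in 15% serum with 1000 units/ml of leukemia inhibitory factor (LIF). The labels used here name no drug. Every culture had received a lentiviral short hairpin RNA. The hairpin was shApela_1 or shApela_2, both aimed at Apela, or shLuc, aimed at luciferase, a firefly enzyme with no counterpart in the mouse. Each of the 3 groups had 3 arrays numbered 1 to 3, 9 in all. The labels used here do not tell how long the hairpins had acted or whether transduced cells were selected.

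Pluripotency rests on a network in which Pou5f1 (OCT4), Sox2 and Nanog bind each other's control regions and those of many other genes. Around this core lies a set of factors tied to the naive state, the state of the preimplantation epiblast that LIF helps to preserve in culture. LIF acts through STAT3, which is known to activate Klf4 and Tfcp2l1, and the naive factors can partly replace one another. When cells leave the naive state, factors such as Klf4, Esrrb, Tfcp2l1, Tbx3 and Zfp42 are known to be lost before Pou5f1 and Sox2.

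The deposited values were taken as log2 expression levels, a base inferred from how far they extend. On that reading a difference of 1 means a 2-fold ratio of signal. The third shApela_2 array stood apart: its median was 7.12, where the other 8 arrays lay between 7.03 and 7.07. Apela itself measured 9.76, 9.68 and 9.65 with shApela_1 and 9.79, 9.79 and 9.56 with shApela_2, against 11.40, 11.31 and 11.19 with shLuc. That left 32.9% of the shLuc signal with shApela_1 (limma, adjusted p = 0.000197) and 33.4% with shApela_2 (adjusted p = 0.000219).

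None of the 10 factors passed the test with either hairpin. The counts were 0 of 10 with shApela_1, where 0.336% of all genes passed, and 0 of 10 with shApela_2, where 0.015% did (limma, Benjamini-Hochberg over all genes, threshold 0.05). At an unadjusted p under 0.05 the counts were again 0 and 0, where 7.69% and 5.77% of all genes lay. The arrays of a hairpin and those of shLuc overlapped for every factor (0 without overlap for each hairpin, where the groups did not overlap for 13.7% and 10.3% of all genes). A count of 0 among 10 lies near backgrounds this low and is not particular to these factors. In bulk RNA a smaller number of expressing cells and less RNA per cell cannot be told apart, so a level here is an average over the culture.

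The intervals bound the size of each change only as far as the spread among these arrays goes. With shApela_1 the 10 changes had a median of -0.00 and a median size of 0.04, beside 0.01 and 0.04 over all genes. With shApela_2 these were 0.01 and 0.05, beside 0.02 and 0.06. The 95% interval of each factor stayed within 1.5-fold in both directions with each hairpin, as it did for 98.1% and 98.3% of all genes. The farthest bound was 1.35-fold with shApela_1 and 1.28-fold with shApela_2, both for Tbx3.

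**Figure D1:**
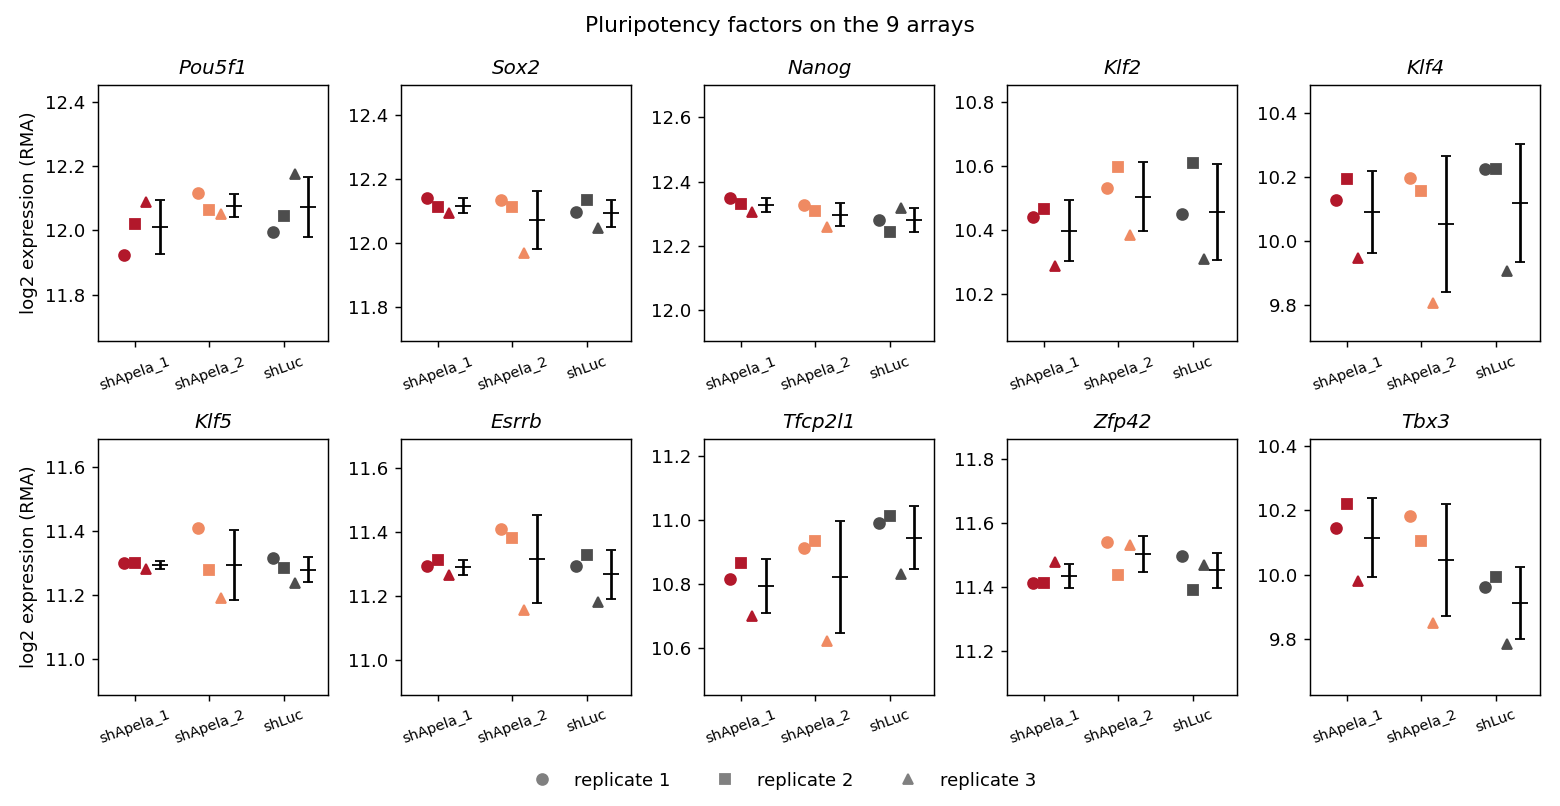
Log2 expression of the 10 factors on each array (vertical axis, 0.8 log2 units in every panel, centred on the factor's mean) for shApela_1, shApela_2 and shLuc, with the replicate number as the marker shape and the group mean ± SD of 3 arrays in black. The groups overlap in every panel, and for Sox2, Klf2, Klf4, Klf5, Esrrb, Tfcp2l1 and Tbx3 the array numbered 3 is the lowest of each group.

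Pou5f1, the POU-domain factor without which the pluripotent lineage does not form, measured 11.92, 12.02 and 12.09 with shApela_1, 12.12, 12.06 and 12.05 with shApela_2, and 11.995, 12.05 and 12.18 with shLuc. Its groups overlapped throughout, and the shLuc arrays alone spanned most of the range. Its change was -0.06 with shApela_1 (95% interval -0.20 to 0.07, adjusted p = 1) and 0.0044 with shApela_2 (-0.13 to 0.14, adjusted p = 0.98).

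Sox2, the HMG-box partner that binds DNA beside OCT4, measured 12.14, 12.11 and 12.09 with shApela_1, 12.14, 12.11 and 11.97 with shApela_2, and 12.10, 12.13 and 12.05 with shLuc. Only the array of shApela_2 that stood apart fell below 12. The changes were 0.02 (-0.09 to 0.14) and -0.02 (-0.14 to 0.09) with shApela_1 and shApela_2, on opposite sides of 0.

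Nanog, the homeodomain factor that lets cells renew themselves with less LIF, measured 12.35, 12.33 and 12.31 with shApela_1, 12.33, 12.31 and 12.26 with shApela_2, and 12.28, 12.24 and 12.32 with shLuc. It had the narrowest range of the 10 factors over the 9 arrays, 0.11. Its changes were 0.05 (-0.04 to 0.13) with shApela_1 and 0.02 (-0.07 to 0.10) with shApela_2.

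Matches to sites of the core factors were sought in sequence near the start sites of these genes. OCT4 is known to bind the octamer, whose core ATGCAAA was searched on both strands of the RefSeq windows of GRCm38.p6 that run from 250 bases before a start site to 50 after it. Windows were at hand for 8 of the 10 factors, all but Klf5 and Tbx3, and those of Sox2, Nanog and Zfp42 held the core, as did 4.63% of all windows. Nanog's also held the SOX-OCT composite, searched as CATTGT, any 1 base and ATGCA, which shares ATGCA with the octamer core, found in 0.0274% of all windows, either strand. The stretches around these matches are shown as sequence only, and whether the core factors act through them was not tested. Capitals mark the octamer core and, for Nanog, the composite as well, read on the opposite strand for Nanog and Zfp42. Counted from the start site, the match lies at -99 to -93 in Sox2, at -151 to -138 in Nanog and at -185 to -179 in Zfp42. For Nanog 2 windows held the composite, and the position is counted from the start site of 1 of them. The box GGGTGTGG, a site of Krüppel-like factors, was in the window of Zfp42 alone among the 8, and in 3.56% of all windows. These matches describe sequence, not binding in these cells.
Sox2 (chr3:34649866-34649932, plus strand): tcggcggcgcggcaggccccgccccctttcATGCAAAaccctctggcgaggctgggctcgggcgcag
Nanog (chr6:122707384-122707457, plus strand): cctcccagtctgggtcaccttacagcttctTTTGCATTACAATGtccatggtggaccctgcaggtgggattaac
Zfp42 (chr8:43307158-43307224, minus strand): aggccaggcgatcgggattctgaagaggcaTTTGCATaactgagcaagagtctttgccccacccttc

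Among the Krüppel-like zinc finger factors, Klf4, a target of LIF and STAT3 signalling, measured 10.13, 10.20 and 9.95 with shApela_1, 10.20, 10.16 and 9.81 with shApela_2, and 10.23, 10.22 and 9.91 with shLuc. Within each group 1 array, always the one numbered 3, lay below 10 and the others above it. Its changes were -0.03 with shApela_1 (-0.31 to 0.26) and -0.06 with shApela_2 (-0.35 to 0.22), small beside an SD of 0.13, 0.21 and 0.18 within shApela_1, shApela_2 and shLuc.

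Klf2, which sustains self-renewal when ERK signalling is blocked, ranged from 10.29 to 10.61 over all arrays and had the largest difference between the Apela hairpins, 0.11 for shApela_2 minus shApela_1 (-0.09 to 0.30, adjusted p = 0.57). Against shLuc its changes were -0.06 with shApela_1 and 0.05 with shApela_2. Klf5, needed for growth of the inner cell mass, ranged from 11.19 to 11.41 and had a difference of 0.01 with each hairpin (-0.11 to 0.14 for both). The Klf2 differences had opposite signs, and none of these passed.

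Esrrb, an orphan nuclear receptor that takes part in the naive network, ranged from 11.16 to 11.41, with changes of 0.02 with shApela_1 (-0.14 to 0.18) and 0.05 with shApela_2 (-0.11 to 0.21). Zfp42 (REX1), a zinc finger protein used as a reporter of the naive state, ranged from 11.39 to 11.54, with changes of -0.02 (-0.12 to 0.09) and 0.05 (-0.05 to 0.16). Neither factor passed, and the farthest bound of these intervals was 1.15-fold.

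Tfcp2l1 and Tbx3 had the largest changes of the 10 with each hairpin, and in opposite directions. Tfcp2l1, a CP2-family factor downstream of STAT3, measured 10.82, 10.87 and 10.70 with shApela_1, 10.91, 10.94 and 10.62 with shApela_2, and 10.99, 11.01 and 10.83 with shLuc. Both Apela groups overlapped shLuc through the shLuc array numbered 3. The change was -0.15 with shApela_1, or 90.1% of the shLuc signal (-0.36 to 0.06, adjusted p = 0.88), and -0.12 with shApela_2 (-0.33 to 0.08, adjusted p = 0.69). With the shApela_2 array numbered 3 left out, the second value was -0.02 (adjusted p = 0.97), a leave-out that keeps the low shLuc array of the same number. Where numbers stayed balanced it was -0.08 (arrays numbered 1 and 2 only, adjusted p = 0.64) and -0.07 (number as a block without that array, adjusted p = 0.61).

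Tbx3, a T-box factor that sustains the naive state and represses differentiation, measured 10.14, 10.22 and 9.98 with shApela_1, 10.18, 10.10 and 9.85 with shApela_2, and 9.96, 9.99 and 9.78 with shLuc. Again the Apela groups overlapped shLuc through arrays numbered 3: that of shApela_1 lay below 1 shLuc array (number 2) and that of shApela_2 below both numbers 1 and 2. The change was 0.20 with shApela_1, or 115.1% of the shLuc signal (-0.02 to 0.43, adjusted p = 0.75), and 0.13 with shApela_2 (-0.09 to 0.36, adjusted p = 0.69). With the same array left out, the second value was 0.23 (adjusted p = 0.93). With numbers balanced it was 0.17 on arrays numbered 1 and 2 (adjusted p = 0.42) and 0.16 with the block and without that array (adjusted p = 0.28). The size of the Tbx3 difference was above that of 95.4% of all genes with shApela_1 and 84.5% with shApela_2. For Tfcp2l1 these shares were 90.9% and 81.4%.

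**Figure D2:**
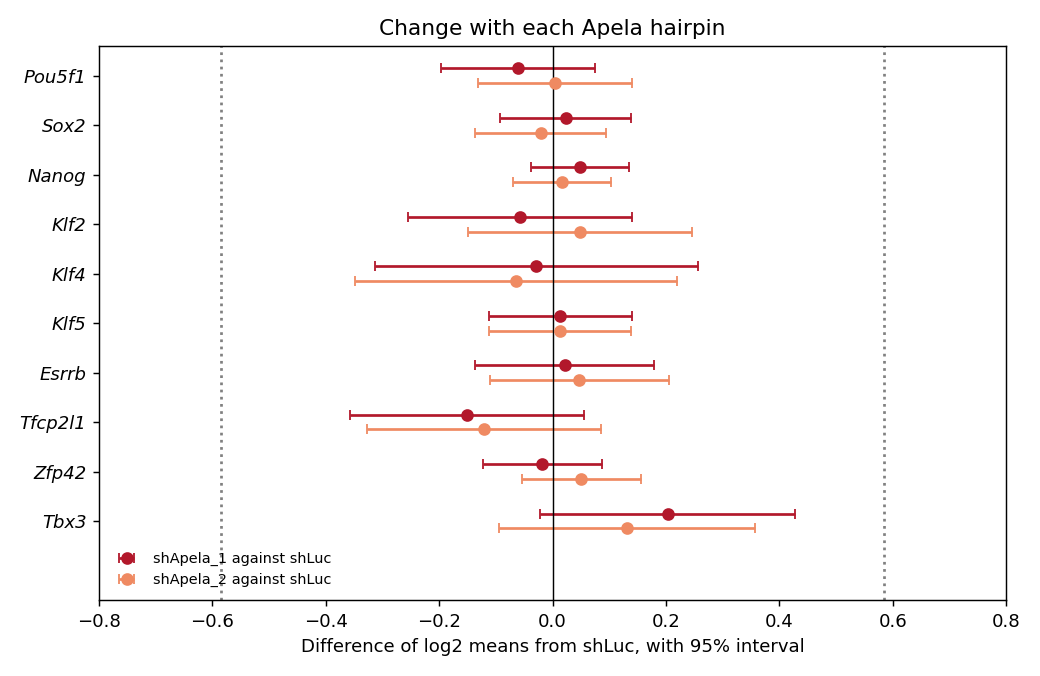
Difference of log2 means from shLuc (horizontal axis) for each factor with shApela_1 and with shApela_2, with 95% intervals from limma and dotted lines at 1.5-fold. Every interval holds 0 and stays inside the dotted lines; Tbx3 lies farthest to the right and Tfcp2l1 farthest to the left.

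Arrays of the same number were next set against each other. Their deviations from group means had correlations across genes of 0.44, 0.40 and 0.68 between shApela_1 and shLuc. Between shApela_2 and shLuc the correlations were -0.01, 0.67 and 0.47, so the arrays numbered 1 did not run together there. No correlation was taken between arrays of unlike number, so whether numbers mark pairs was not tested. Tbx3 was higher with shApela_1 by 0.18, 0.23 and 0.20 in replicates 1, 2 and 3, and with shApela_2 by 0.22, 0.11 and 0.06. Tfcp2l1 differed by -0.18, -0.15 and -0.13 with shApela_1 and by -0.08, -0.08 and -0.21 with shApela_2. Each factor thus kept its direction at every number with both hairpins, which were set against the same shLuc arrays. With shApela_1 the differences of each factor varied little from number to number, while with shApela_2 those of both factors varied more.

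An unvarying direction was no rarity: with shApela_1 it held for 4 of the 10 factors (Pou5f1, Klf2, Tfcp2l1 and Tbx3) and 36.9% of all genes, and with shApela_2 for 4 (Klf4, Tfcp2l1, Zfp42 and Tbx3) and 30.6% of all genes. Once number entered the fit of all 9 arrays as a block, again no factor passed (0 of 10 with each hairpin, where 0.953% and 0.0401% of all genes did). In that fit Tbx3 with shApela_1 had an interval of 0.10 to 0.31 (unadjusted p = 0.0028, adjusted p = 0.10), and Tfcp2l1 one of -0.26 to -0.04 (unadjusted p = 0.012, adjusted p = 0.20). These were the 2 factors at an unadjusted p under 0.05 with shApela_1, where 12.1% of all genes lay. With shApela_2 they were again the 2 at that level (intervals 0.02 to 0.24 for Tbx3 and -0.23 to -0.02 for Tfcp2l1, both adjusted p = 0.53), where 8.9% of all genes lay.

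Which arrays entered the block fit decided the call of Tbx3 with shApela_1. Fitted on the 6 arrays of shApela_1 and shLuc alone, Tbx3 passed (0.20, adjusted p = 0.035) and Tfcp2l1 did not (adjusted p = 0.062), where 3.49% of all genes passed. Fitted without the third shApela_2 array, both passed (adjusted p = 0.023 for Tbx3 and 0.024 for Tfcp2l1), where 6.9% did. With shApela_2 no factor passed in the corresponding fits (0 and 0, where 0.00502% and 0.115% of all genes passed), and Tbx3 had adjusted p = 0.63 and 0.28. These added fits were chosen after seeing the data, and neither is the main test of this comparison.

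**Figure D3:**
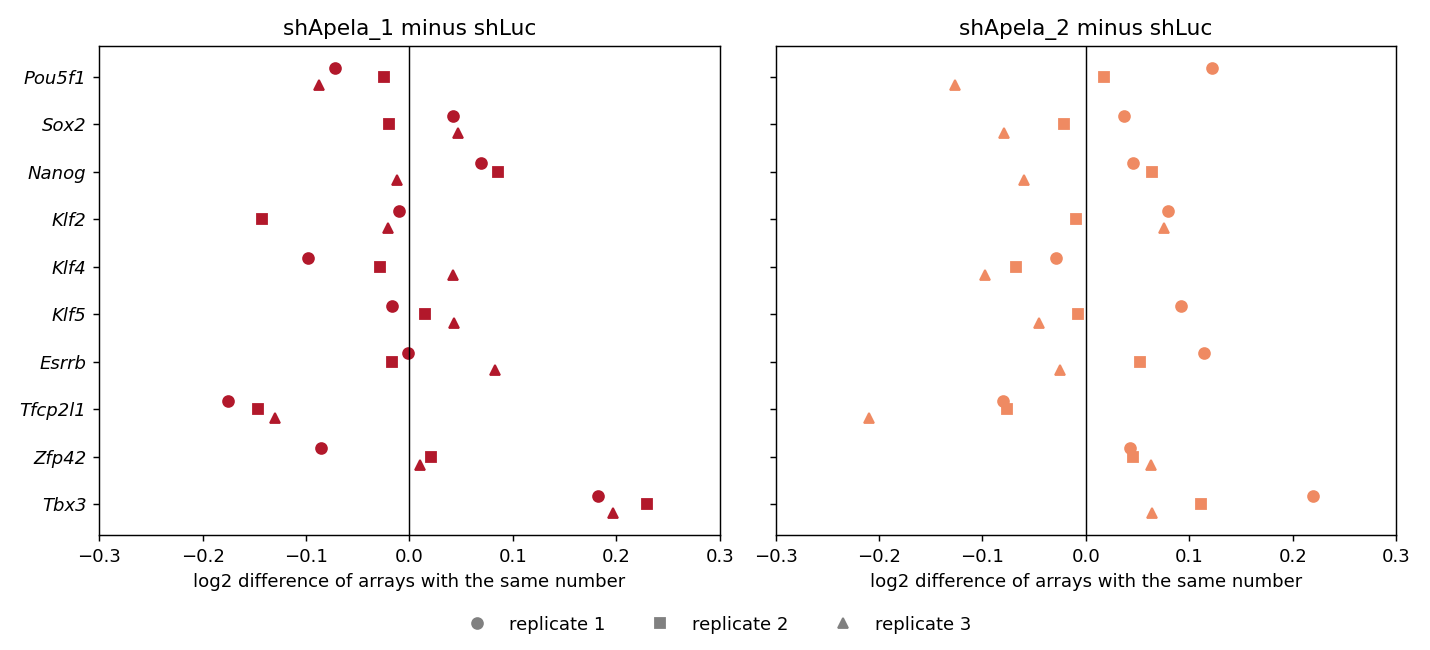
Log2 difference (horizontal axis) between arrays of the same replicate number, shApela_1 minus shLuc on the left and shApela_2 minus shLuc on the right, 1 marker per number. Tfcp2l1 lies below 0 and Tbx3 above 0 at all 3 numbers in both panels, and with shApela_1 the markers of each lie close together.

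The hairpins were also compared with each other. For shApela_2 minus shApela_1, 0 of the 10 factors passed, where 0.948% of all genes did, and 0 had an unadjusted p under 0.05, where 12.9% did. The median size of the 10 differences was 0.04, beside 0.07 over all genes. Tbx3 differed by -0.07 (-0.30 to 0.15) and Tfcp2l1 by 0.03 (-0.18 to 0.24), intervals wider than the differences from shLuc. The groups did not overlap for 0 of the 10, against 17.6% of all genes. At equal numbers 4 factors kept 1 direction (Sox2, Nanog, Klf2 and Zfp42), against 35.6% of all genes. With the block 0 passed, against 3.28% of all genes, and Klf2 was the 1 factor at an unadjusted p under 0.05 (0.01 to 0.20, adjusted p = 0.22), against 18.5%. For the mean of both hairpins against shLuc, 0 of 10 passed where 0.015% of all genes did, and 0 had an unadjusted p under 0.05 where 4.58% did. In that comparison Tbx3 had 0.17 (-0.03 to 0.36) and Tfcp2l1 -0.14 (-0.32 to 0.04). There 0 factors had groups without overlap, against 2.17% of all genes. With the block 0 passed, against 0.01%, and 2 had an unadjusted p under 0.05 (Tbx3 and Tfcp2l1), against 8%.

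Replicate number accounted for more of the spread than the hairpin did. For 9 of the 10 factors, all but Nanog, the share of the sum of squares over the 9 arrays that went with number was above the share that went with hairpin group, which was so for 47.0% of all genes. For 7 factors the share by number was over 50%, as it was for 21.9% of all genes. Klf4 was the extreme, with 91.1% by number and 3.2% by hairpin, followed by Klf2 with 78.0% and 16.5%. Tbx3 divided into 58.8% and 35.3%, with 5.9% left over, and Nanog into 12.8% and 36.2%. These shares are descriptive, and the labels do not say what a number stands for.

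**Figure D4:**
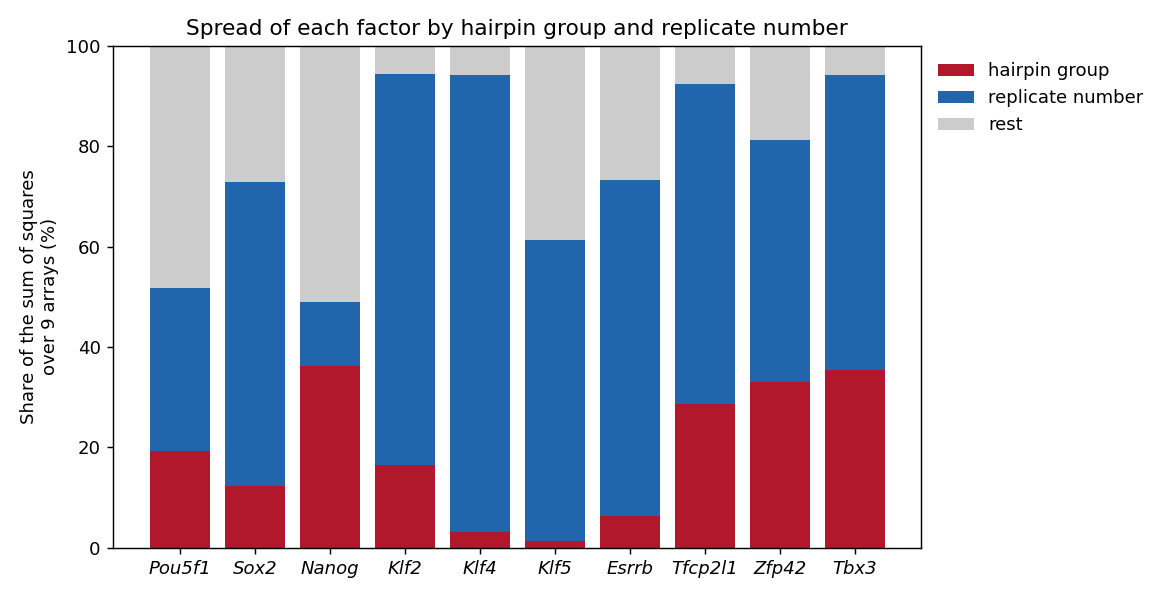
Share of each factor's sum of squares over the 9 arrays (vertical axis, percent) that goes with hairpin group, with replicate number, and with neither. The blue part (replicate number) is the larger coloured part for every factor but Nanog and reaches 91.1% for Klf4.

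Most of the 10 factors were lower on the arrays numbered 3, while the median difference over all genes was 0.03. Set against the mean of numbers 1 and 2 within each group, 7 factors were lower in all 3 groups (Sox2, Klf2, Klf4, Klf5, Esrrb, Tfcp2l1 and Tbx3), where 17.2% of all genes were, and Zfp42 was higher in all 3, where 22.3% were. In a limma fit with hairpin group and number, 4 factors fell: Klf4 by 0.30 (SE 0.04, adjusted p = 0.0072), Tbx3 by 0.23 (adjusted p = 0.015), Tfcp2l1 by 0.20 (adjusted p = 0.022) and Klf2 by 0.19 (adjusted p = 0.020), where 10.3% of all genes passed, and 4.74% passed downward. Without the third shApela_2 array the same 4 passed, with differences of -0.27, -0.20, -0.16 and -0.19 in that order, where 16% of all genes did. After a second quantile normalization 5 passed (15.7% of all genes), and with centred array medians 4 (7.26%). Pou5f1 had 0.08 (adjusted p = 0.35) and Nanog -0.01 (adjusted p = 0.84). This comparison was chosen after the values were seen.

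Genes with the nearest profiles were sought for the 3 factors of widest range. Nearness was the root mean square difference of mean-centred log2 values over the 9 arrays, among named genes brighter than the median of the table (7.06). Nearest to Tbx3, whose SD over the 9 arrays was 0.15, were Agrn (0.054), Casp9 (0.055) and Alpl (0.056), which encode the matrix protein agrin, an initiator caspase and the alkaline phosphatase by which stem cell colonies are stained. Nearest to Klf4 (SD 0.16) were Rp2 (0.036), Chka (0.038) and Ptms (0.043). Nearest to Tfcp2l1 (SD 0.13) were Tollip (0.038), Slc22a23 (0.041) and Acat1 (0.042). These arrays share hairpin and number, and with 9 of them such nearness is a description only.

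The other genes of the network were read from 3 lists. Of 29 measured partner regulators of pluripotency, 0 passed with either hairpin, where 0.336% of all genes passed with shApela_1 and 0.015% with shApela_2. These shares stand beside each count of 0 in the other lists as well. With shApela_1, 8 were higher and 21 lower with a median of -0.04, and with shApela_2 12 were higher and 17 lower with a median of -0.01. Their smallest p values with shApela_1 belonged to Lin28a, which binds RNA precursors of the let-7 family (-0.44, adjusted p = 0.064), and Rif1, a regulator of replication timing (-0.25, adjusted p = 0.12). Group means with shApela_1, shApela_2 and shLuc were 9.77, 10.27 and 10.21 for Lin28a, and 11.33, 11.50 and 11.57 for Rif1. Lin28a was thus not lower than shLuc with shApela_2. With the replicate number as a block these 2 passed (adjusted p = 0.012 and 0.049) and no other partner did, 2 of 29 where 0.953% of all genes passed. With shApela_2 the leads were Nr0b1 (DAX1), a nuclear receptor that binds OCT4 (0.13, adjusted p = 0.68), and the zinc finger factor Zfp281 (-0.08, adjusted p = 0.68).

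In LIF and STAT3 signalling, 0 of 14 genes passed with either hairpin. The median was 0.05 with shApela_1 (10 higher, 4 lower) and -0.03 with shApela_2 (4 higher, 10 lower). The kinase Tyk2 had 0.26 with shApela_1 (adjusted p = 0.24) and Ifitm3 0.11 (adjusted p = 0.52). Means of Tyk2 were 8.40, 8.14 and 8.14 with shApela_1, shApela_2 and shLuc, so it stood at the shLuc level with shApela_2. Stat3 itself had -0.16 with shApela_2 (adjusted p = 0.68), and Ifitm3 there had 0.17 (adjusted p = 0.67). With the block 1 of 14 passed with shApela_1, where 0.953% of all genes did: Socs3, the feedback inhibitor of the LIF receptor (0.42, adjusted p = 0.04985, and 0.97 without the block), named after its value was seen.

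Genes of the primed and formative epiblast, which rise as the naive state is left, also held 0 calls among 17 with either hairpin. With shApela_1 their median was -0.12 (6 higher, 11 lower), led by the carbonic anhydrase Car4 (-0.55, adjusted p = 0.056) and the growth factor Fgf5 (-0.47, adjusted p = 0.12). With shApela_2 the median was -0.01 (8 higher, 9 lower), led by Zic2 (0.18, adjusted p = 0.68) and Etv4 (-0.26, adjusted p = 0.68). Group means with shApela_1, shApela_2 and shLuc were 9.56, 10.02 and 10.11 for Car4, and 7.47, 8.03 and 7.94 for Fgf5. Fgf5 was thus not lower than shLuc with shApela_2. Of these 17 genes, 7 lay above the upper quartile of the table, 9.04, and 16 above its median, 7.06. With the block 2 of 17 passed with shApela_1, where 0.953% of all genes did: Car4 (adjusted p = 0.019) and, named after its value was seen, Lef1, a nuclear partner of beta-catenin (-0.93, adjusted p = 0.018).

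The labelled cell type was checked against its markers. The mean of each of the 10 factors lay above the upper quartile of the table, 9.04. Of the markers of other cell types, 0 of 12 for primitive endoderm, 0 of 9 for mesoderm, 0 of 8 for neuroectoderm and 0 of 10 for fibroblast feeders lay above that line, as did 2 of 12 for trophectoderm and 1 of 4 for two-cell-like cells. These were means over all 9 arrays, and the feeder marker Acta2 had 9.19 with shLuc alone. The lower line of the table's median, 7.06, was passed by 5, 1, 4, 6, 6 and 3 markers of these lists in the same order. Of 10 listed for each, 9 mesoderm, 8 neuroectoderm and 4 two-cell-like markers were measured. The two-cell-like marker above 9.04 was Eif1a, named after its level was seen. Its means were 10.26, 10.25 and 10.27 with shApela_1, shApela_2 and shLuc. None of these 6 lists held a call with either hairpin (0 in each, beside 0.336% of all genes with shApela_1 and 0.015% with shApela_2). With shApela_1 the members higher and lower were 4 and 8 for primitive endoderm, 4 and 8 for trophectoderm, 5 and 4 for mesoderm, 3 and 5 for neuroectoderm, 4 and 6 for fibroblast feeders and 3 and 1 for two-cell-like cells. With shApela_2 they were 8 and 4, 7 and 5, 8 and 1, 6 and 2, 9 and 1, and 1 and 3 in the same order of lists. With shApela_1 their medians lay between -0.05 (trophectoderm) and 0.05 (two-cell-like), and with shApela_2 between -0.01 (two-cell-like) and 0.11 (mesoderm). The smallest p values with shApela_1 were those of Dab2 (primitive endoderm, -0.34, adjusted p = 0.12), Krt8 (trophectoderm, -0.49, adjusted p = 0.34), Acta2 (fibroblast, -0.67, adjusted p = 0.58), Nes (neuroectoderm, -0.23, adjusted p = 0.64), Usp17lc (two-cell-like, 0.09, adjusted p = 1) and Kdr (mesoderm, -0.02, adjusted p = 1). With the block Krt8 (1 of 12) and Acta2 (1 of 10) passed with shApela_1 (adjusted p = 0.026 and 0.044), where 0.953% of all genes did. With shApela_2 the smallest p values were those of Dab2 (-0.26), Eomes (trophectoderm, -0.15), Gsc (mesoderm, 0.10), Pax6 (neuroectoderm, 0.14) and Col3a1 (fibroblast, 0.22), each with adjusted p = 0.68, and Zfp352 (two-cell-like, -0.10, adjusted p = 0.87). Acta2, the 1 fibroblast marker lower with shApela_2, had -0.55 there (adjusted p = 0.68). Its group means were 8.52, 8.64 and 9.19 with shApela_1, shApela_2 and shLuc. What part such cells have in the levels of the 10 factors was not tested.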

How the data were processed

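The authors deposited signals that were already normalized, taken here as log2. RMA, which corrects background, equalizes arrays and summarizes probes, and Partek 6.6 are named in the submitters' processing notes. No source used here gives their settings or a log base, and base 2 was inferred from how far the values extend. The number of arrays limits the precision. Groups and replicate numbers came from sample titles. Nothing says that replicates were separate cultures, so the p-values reflect the spread among these arrays alone, perhaps technical.

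Of 28853 probe sets, GEO's platform annotation gave 21775 a single symbol, and the brightest per symbol stood for each of 19938 genes. All 3 groups were fitted together in R 4.3.3 with limma 3.58.1 (lmFit, eBayes, two-sided; 6 residual and 2.72 prior degrees of freedom), with Benjamini-Hochberg adjustment over all genes. The fit was tested on simulated data. The 10 factors and the 9 other lists were chosen with earlier results of these data known. Text names every factor, Apela, up to 2 genes of smallest p in each other list and hairpin (1 for lists of other cell types), and the 3 nearest profiles of the 3 factors of widest range. Promoter windows came from RefSeq (GRCm38.p6).

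Correlations of same-numbered deviations were 0.44, 0.40 and 0.68 for shApela_1 with shLuc, -0.01, 0.67 and 0.47 for shApela_2 with shLuc, and 0.18, 0.21 and 0.21 for shApela_2 with shApela_1. The values were above 0 at every number in the first and last of these comparisons, but not at number 1 in the second. Arrays of unlike number were not correlated, so whether numbers mark pairs was not tested. The block and the same-number differences were applied to each comparison regardless. Alternatives covered the prior, dim genes, scaling, array weights, the block, the arrays fitted, probe sets and thresholds.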

Additional observations from a re-analysis of the deposited data

How the results depend on the processing

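Across 23 alternatives for each hairpin against shLuc, 20 for the mean of both and 21 for shApela_2 against shApela_1, 0 factors passed, except for Tbx3 (and Tfcp2l1) with shApela_1 in the added block fits, which gave 1 (only the compared arrays) and 2 (without the third shApela_2 array). Tbx3 kept a positive and Tfcp2l1 a negative change in each alternative with either hairpin, from 0.14 to 0.27 and -0.21 to -0.10 with shApela_1, and from 0.06 to 0.23 and -0.18 to -0.02 with shApela_2. Many alternatives could not move a change at all: the prior, thresholds, dim genes, probe sets (1 per factor), the block of all arrays and arrays outside the comparison. Signs could turn only with scaling, array weights or the loss of arrays of the comparison. The replicate number as a block changed the call of no factor in the fit of all arrays. The added block fits were run only for each hairpin against shLuc, and the mean of both has no value with only the compared arrays. The cause was not tested.

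Counts over all genes moved more. For shApela_1 they were 67, against 37 with trend and robust prior, 31 with centred medians, 688 with array weights, 190 with the replicate block, 44 with only the compared arrays, 7 and 134 at thresholds of 0.01 and 0.10, 249 on arrays 1 and 2, and 3 to 146 leaving out an array. For shApela_2 they were 3, against 7 after a second quantile normalization, 23 with array weights, 8 with the block, and 2 to 6 leaving out an array. For the mean of both they were 3, against 7, 31 and 1 (second quantile normalization, array weights, threshold 0.01), and 1 to 6 leaving out an array. For shApela_2 minus shApela_1 they were 189, against 1446, 653, 28, 27, 374 and 434 (array weights, block, only the compared arrays, both thresholds, arrays 1 and 2), and 19 to 222 leaving out an array.

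Small uncalled changes turned sign. Centred medians gave -0.036 (Pou5f1), -0.024 (Nanog) and -0.028 (Klf5) with shApela_2, -0.020 (Sox2), -0.0081 (Klf5) and -0.0053 (Zfp42) for the mean, and -0.013 (Esrrb) and -0.0094 (Tfcp2l1) between the hairpins. Array weights gave 0.016 (Sox2, shApela_2), 0.024 (Klf2) and -0.0080 (Zfp42) for the mean, and 0.021 (Klf4) and 0.025 (Klf5) between the hairpins. Arrays 1 and 2 gave -0.00095 (Klf5) and -0.0092 (Esrrb) with shApela_1, 0.0079 (Sox2) with shApela_2, 0.011 (Pou5f1) for the mean, and 0.015 (Klf4) and 0.043 (Klf5) between the hairpins. A second quantile normalization gave 0.017 (Klf4) and 0.012 (Klf5) there, and the block without the third shApela_2 array 0.014 (Sox2, shApela_2).

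Leaving out single arrays turned signs within these ranges. With shApela_1 they were -0.135 to 0.0428 (Klf4), -0.0485 to 0.00463 (Zfp42), -0.131 to 0.0184 (Klf2), -0.00763 to 0.0322 (Klf5) and -0.0215 to 0.0517 (Esrrb). With shApela_2 they were -0.0345 to 0.0566 (Pou5f1), -0.00185 to 0.0364 (Nanog), -0.0244 to 0.125 (Klf2), -0.0451 to 0.0634 (Klf5), -0.0527 to 0.0306 (Sox2) and -0.171 to 0.0581 (Klf4). For the mean they were -0.153 to 0.0148 (Klf4), -0.0775 to 0.0715 (Klf2), -0.0142 to 0.0389 (Zfp42), -0.0674 to 0.0237 (Pou5f1), -0.0217 to 0.0269 (Sox2), -0.0157 to 0.0386 (Klf5) and -0.0087 to 0.0739 (Esrrb). Between the hairpins they were -0.0589 to 0.0497 (Klf5), -0.108 to 0.0866 (Klf4), -0.0273 to 0.13 (Tfcp2l1), -0.0208 to 0.105 (Esrrb), -0.076 to 0.00733 (Sox2) and -0.139 to 0.0273 (Tbx3).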
